A study of Homo sapiens with 6 samples.

Results

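Histone genes were examined in the transcriptomes of 3 non-small cell lung cancer (NSCLC) cell lines, H460, H1299, and A549, with and without knockdown of MALAT1, a nuclear long noncoding RNA. Members were the rows annotated as protein-coding whose symbol names a linker histone H1 or a core histone H2A, H2B, H3, or H4, which gave 92 of the 46427 genes in the deposited table. The rule used symbols and no measured value. Of the 92 genes, 70 belong to the histone gene clusters, 55 on chromosome 6 and 15 on chromosome 1 of GRCh38, and are called clustered genes here. The other 22 are variant or solitary genes outside the clusters. Among the clustered genes 6 encode H1, 17 H2A, 18 H2B, 15 H3, and 14 H4.

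RNA-seq was performed on 6 libraries, 1 from control cells and 1 from cells transfected with small interfering RNA against MALAT1 (si-MALAT1) in each line. The labels call the control cells non-treated, whereas the methods describe both negative controls and cells given a control siRNA, so an effect of the transfection and one of the knockdown cannot be told apart. All 3 are established lines grown in culture, H460 from a large cell carcinoma, H1299 from a lymph node metastasis, and A549 from an adenocarcinoma of the lung. The time from transfection to RNA isolation was not given in the sources used here. Total read counts lay between 42506818 and 68515992. MALAT1 itself was lower in the si-MALAT1 library of each line, with log2 fold changes of -2.32, -2.96, and -2.84 in H460, H1299, and A549. As a check of the lines, CDKN2A, deleted in H460 and A549, was listed at 0 reads in their 4 libraries and had 2938 and 2679 reads in H1299. Among markers of the epithelial lineage KRT8 and KRT18 had at least 11408 reads in every library, KRT19 had 44567 and 33570 in H460 but at most 121 in H1299 and A549, EPCAM had 23 to 485, and CDH1 had at most 13 in H460 and H1299. Of the markers of other cells PTPRC and CD3E were at 0 in all 6 libraries and PECAM1 and ALB had at most 8 reads, while the collagen genes of fibroblasts were read, COL1A1 with 38 to 472 reads and COL3A1 with 4961 and 4300 in H460, 0 and 22 for H1299, and 1961 and 1831 for A549.

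Most histone protein is made when DNA is copied. In S phase, the part of the cell cycle in which DNA replicates, the clustered genes are transcribed together at a nuclear site organized by NPAT, and their transcripts are the only common mRNAs of animal cells that end without a poly(A) tail. They end instead in a short stem-loop, which is bound by SLBP and directs the cut made with the U7 small nuclear RNA and the breakdown of the mRNA once replication stops. Variant genes such as H3-3A, H3-3B, and H2AZ1 are mostly spliced, carry a poly(A) tail, and are expressed throughout the cell cycle, supplying histones for replacement outside S phase. Ribosomal RNA was removed here without selecting poly(A) tails, so transcripts of both kinds could be sequenced.

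The stem-loop is shown because it is the feature that the clustered genes share and that the choice by symbol did not use. The histone stem-loop motif of 16 bases, a stem of 6 bases on either side of a loop of 4, was searched for in the 150 bases that follow the coding part of each gene on its own strand, in GRCh38 with the NCBI annotation deposited with the data. It was found in 70 of the 70 clustered genes and in 2 of the 22 variant or solitary genes, H2AX and H4-16. Of the 19672 protein-coding genes searched, 73 (0.371%) had it, and BTBD10 was the only one of these that is no histone gene. On the opposite strand it was found in 2 genes. The members carry 11 different forms, and the 4 most frequent ones and that of H2AX follow with the stem in capitals.
Most clustered H1, H2A, H2B, and H3 genes (41 genes): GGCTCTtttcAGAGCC
H2BC4, H2BC12, H3C8, and others (10 genes): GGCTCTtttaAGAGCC
Most H4 genes and the solitary H4-16 (10 genes): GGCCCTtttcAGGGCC
H4C14, H4C15, H4C9, and H4C12 (4 genes): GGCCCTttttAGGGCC
H2AX (1 gene): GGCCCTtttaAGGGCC

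Promoters were searched as well. Of the 92 members, 84 had a promoter in RefSeq (GRCh38.p14), taken as 250 bases before to 50 bases after the start of transcription. Both strands were searched. The TATA box TATAAA was found in 44 of 65 clustered genes and in 6 of 19 variant genes, against 12.4% of 15515 protein-coding genes. The CCAAT box was found in every promoter of the clustered H1, H2A, H2B, and H3 genes and in 3 of 12 clustered H4 genes, 56 of 65 in all, and in 17 of 19 variant genes, against 42.3% of protein-coding genes. The octamer ATTTGCAT stood in 11 of 16 clustered H2A, 14 of 18 clustered H2B, and 1 of 13 clustered H3 promoters. No clustered H1 or H4 promoter had it. Among variant promoters 1 of 19 had it, that of H3-3B, against 2.23% of protein-coding genes. The word AAACACA stood in 6 of 6 clustered H1 promoters, against 5.72%. A copy of TATAAA can overlap one on the other strand, and each gene was counted once for a word.

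As examples, the promoters of an H1, an H2B, and an H4 gene of the clusters and of the variant gene H3-3B follow on the strand of the gene, with matches on either strand in capitals.
H1-2, chr6:26056421-26056720, minus strand: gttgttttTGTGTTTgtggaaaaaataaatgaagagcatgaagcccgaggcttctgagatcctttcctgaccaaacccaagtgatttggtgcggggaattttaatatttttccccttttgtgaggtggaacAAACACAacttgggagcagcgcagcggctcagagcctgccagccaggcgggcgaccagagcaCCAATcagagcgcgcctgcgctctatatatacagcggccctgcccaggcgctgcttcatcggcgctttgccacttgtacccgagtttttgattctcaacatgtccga
H2BC11, chr6:27132746-27133045, minus strand: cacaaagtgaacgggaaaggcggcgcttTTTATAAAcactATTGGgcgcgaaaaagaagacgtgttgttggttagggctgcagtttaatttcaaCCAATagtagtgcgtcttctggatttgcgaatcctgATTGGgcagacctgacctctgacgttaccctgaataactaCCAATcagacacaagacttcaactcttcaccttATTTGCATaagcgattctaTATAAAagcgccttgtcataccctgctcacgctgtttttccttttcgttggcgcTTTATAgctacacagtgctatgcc
H4C14, chr1:149832407-149832706, plus strand: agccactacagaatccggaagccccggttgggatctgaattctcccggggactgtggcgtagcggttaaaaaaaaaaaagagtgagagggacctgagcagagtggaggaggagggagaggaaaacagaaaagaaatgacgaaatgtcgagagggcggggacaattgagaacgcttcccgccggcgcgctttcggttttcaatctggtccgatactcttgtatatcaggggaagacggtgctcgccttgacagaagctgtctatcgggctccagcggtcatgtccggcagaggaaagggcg
H3-3B, chr17:75779730-75780029, minus strand: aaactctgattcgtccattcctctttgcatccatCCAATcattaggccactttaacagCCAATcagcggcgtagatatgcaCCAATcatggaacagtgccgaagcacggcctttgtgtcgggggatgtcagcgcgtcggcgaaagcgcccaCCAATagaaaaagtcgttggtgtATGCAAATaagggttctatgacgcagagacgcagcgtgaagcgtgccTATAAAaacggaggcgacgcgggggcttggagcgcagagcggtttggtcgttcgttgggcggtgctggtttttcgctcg
H2BC11 carries the octamer, several CCAAT boxes, and TATA boxes, H1-2 carries AAACACA and CCAAT, and H4C14 carries none of the 4 words. The variant H3-3B has the octamer, CCAAT, and TATA words as well, and it is the only variant promoter with the octamer. These words in a single promoter thus do not give its class.

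Histone transcripts were abundant. Levels are given as TPM, a measure scaled to the library and to transcript length, which can be set side by side between genes. The 92 genes summed to 20138 TPM in the H460 control library and 27229 in its si-MALAT1 library, to 19432 and 10310 for H1299, and to 20575 and 23149 for A549. The 3 control libraries thus lay within a narrow range, and the si-MALAT1 libraries lay above it in H460 and A549 and below it in H1299. In the same order the sums were 2.01%, 2.72%, 1.94%, 1.03%, 2.06%, and 2.32% of all TPM of a library.

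Clustered genes made up most of this. Their sum was 19397 and 26330 TPM in H460, 18085 and 9088 for H1299, and 19390 and 21739 for A549, or 1.36, 0.503, and 1.12 times the control. The sum of the variant genes was 741 and 899 TPM in H460, 1347 and 1221 for H1299, and 1185 and 1411 for A549, which is 1.21, 0.907, and 1.19 times the control. Clustered genes gave 96.3% and 96.7% of histone TPM in H460, 93.1% and 88.2% for H1299, and 94.2% and 93.9% for A549. By read counts, which are not scaled for length, the shares were lower, from 72.4% in the H1299 si-MALAT1 library to 91.6% in the H460 si-MALAT1 library.

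**Figure D1:**
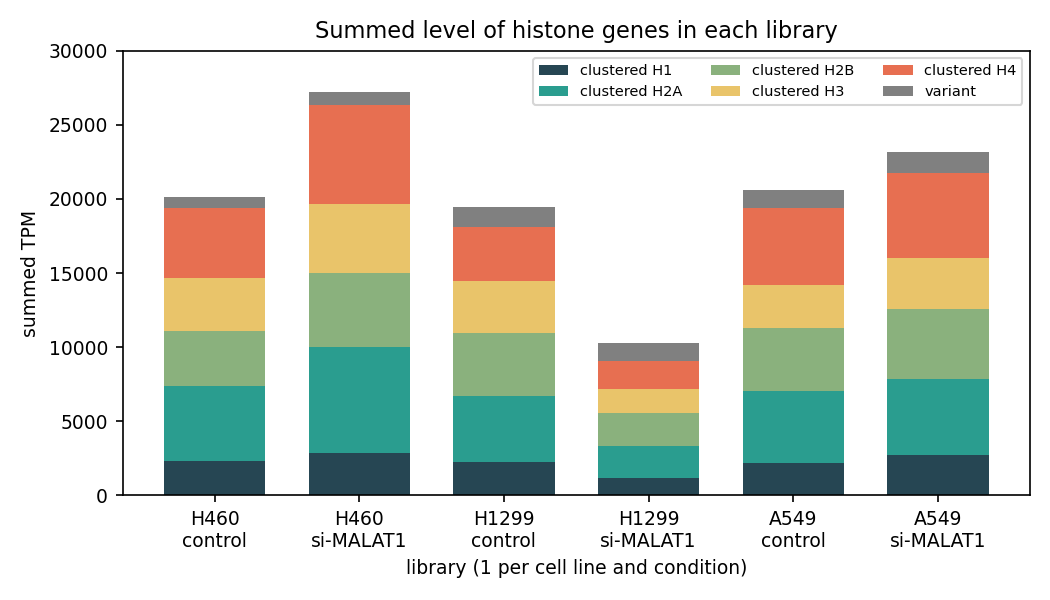
Summed level of the histone genes in TPM on a linear axis for the 6 libraries, stacked by clustered family and with the 22 variant or solitary genes on top. Each bar is 1 library; the H1299 si-MALAT1 bar, at 10310 TPM, is the lowest, and the H460 si-MALAT1 bar, at 27229 TPM, the highest.

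Every clustered family summed to more TPM in the si-MALAT1 library of H460 and A549 and to less in that of H1299. Clustered H4 genes went from 4749 to 6656 TPM in H460 and from 3602 to 1906 in H1299, and clustered H1 genes from 2290 to 2831 and from 2242 to 1156. Between 14 and 15 clustered genes were enough for 50% of the clustered TPM in each library, and between 36 and 48 clustered genes reached 100 TPM. The level of the clustered genes was thus spread over many genes rather than carried by a few. How reads were split between near-identical copies among them is not known here.

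Fold changes were then computed within each line as log2 of the scaled read count plus 1, si-MALAT1 minus control, for genes read at least once in every library. This kept 59 clustered and 12 variant genes. Genes with no read in some library could not enter, and 6 members, H3-4, H4C6, H1-7, H1-8, H2BW1, and H2BW2, had no read at all. With 1 library per line and condition, these differences have no replicate check and no test.

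Clustered histone genes differed from the control in opposite directions in H460 and H1299. Their median log2 fold change was 0.59, -1.02, and 0.17 in H460, H1299, and A549. The median of the 17834 genes kept was 0.02, 0.02, and 0.01. In H460, 58 of the 59 genes were above 0, in H1299 all 59 were below 0, and in A549 43 were above and 16 below. In this bulk RNA, fewer cells in S phase and less histone RNA per cell cannot be told apart.

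A fold change of 1.5 was reached by 30 clustered genes upward in H460, where 9.50% of all genes reached it, and by 1 downward, where 10.3% did. In H1299 it was reached by 0 clustered genes upward (11.7% of all genes) and by 55 of the 59 downward (11.4% of all genes). In A549 it was reached by 3 upward (11.5%) and 4 downward (11.4%), which is below the share of all genes. No histone gene passed it the same way in all 3 lines, where 1.19% of all genes were higher and 1.28% lower (0.933% and 1.17% of the 14464 genes with a mean of 50 reads or more). The share of clustered genes past the fold was thus above that of all genes upward in H460 and downward in H1299. The H460 median lay next to this threshold, which is 0.58 on the log2 scale, and on log2(TPM + 1) 15 clustered genes in place of 30 passed it upward there.

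The study's text gives its threshold both as a fold change and as a log2 fold change of the same number, and the second is far stricter. A log2 fold change of 1.5, tried after the values were seen, was passed by 1 clustered gene upward in H460 (1.30% of all genes), 1 downward in H460 (1.46%), 0 upward in H1299 (1.00%), 1 downward in H1299 (1.18%), 1 upward in A549 (1.68%), and 0 downward in A549 (1.68%). The genes were H2AC11 and H3C8 in H460, H2AC7 in H1299, and H3C4 in A549, and of these only H2AC7 had more than 18 reads in the libraries concerned. At that threshold 1 of 59 genes is near the share of all genes, so the pattern of the clustered genes lies in differences smaller than it.

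Of the 4 clustered genes past the fold downward in A549, H2AC7, H2BC7, and H2BC8 had at most 43 reads there, and H2AW had 615 and 439. The 3 upward were H1-5, from 840 to 1550 reads, H1-6, from 25 to 51, and H3C4, from 2 to 18. The single clustered gene past the fold downward in H460 was H3C8, with 8 and 2 reads. Most of these genes past the fold thus had few reads. Clustered genes below 0 in A549 by less than this fold also included well-read ones, such as H4C14 with 11655 and 12184 reads.

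**Figure D2:**
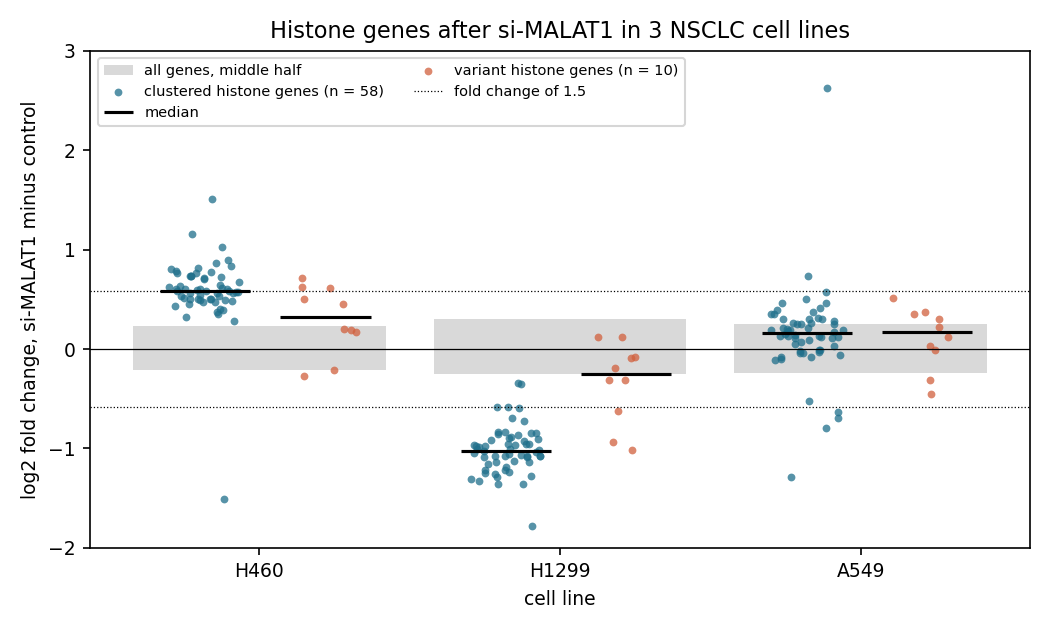
Log2 fold change of each histone gene, si-MALAT1 minus control, in the 3 cell lines (points; 58 clustered and 10 variant genes with a read in each library and a mean of 50 reads or more), with class medians (black lines), the interquartile range of all genes (grey), and a fold change of 1.5 (dotted). Clustered genes lie mostly above the grey band in H460, below it in H1299, and around it in A549.

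To separate these differences from counting error, exact 95% Clopper-Pearson intervals were taken on the split of each gene's reads between the 2 libraries of a line, which cover counting error only. Of the 58 clustered genes with a mean of 50 reads or more, 56 had an interval above 0 in H460, where 36.3% of all genes with as many reads had one, and 57 one below 0 in H1299, where 34.2% did. Both were found for 56 clustered genes and for 10.8% of all genes. The exceptions were H2BC6 and H3C8, which had 15 and 8 reads in the H460 control. In A549, 35 intervals lay above 0 and 8 below, where the shares of all genes were 34.2% and 32.3%. None of the 58 genes had an interval below 0 in H460 (31.8% of all genes) or above 0 in H1299 (39.3%). At these depths the intervals lie off 0 for a large part of all genes, so that one such gene alone is no result.

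The family medians lay close together. In H460 the family medians of the log2 fold change lay between 0.50 for clustered H4 and 0.63 for clustered H2B, and in H1299 between -1.08 for H2A and -0.90 for H4. In A549 they lay between 0.11 for H2B and 0.35 for H1. The 44 genes on chromosome 6 and the 14 on chromosome 1 also had close medians, 0.56 and 0.62 in H460, -1.01 and -1.05 for H1299, and 0.20 and 0.07 for A549. The 51 clustered genes annotated with a single exon in every transcript had medians of 0.59, -1.04, and 0.13, and the 7 with some spliced transcript, which can also end in a poly(A) tail, had 0.50, -0.85, and 0.25. These differences between groups of genes were not tested.

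The most abundant genes of each family showed the pattern one by one. Among the H1 genes, which bind the linker DNA between nucleosomes, H1-2 (Gene ID 3006, chr6:26055740-26056470, 1 exon) had 986 TPM in the control and 1213 in the si-MALAT1 library of H460, 845 and 436 for H1299, and 965 and 1176 for A549. H1-4 (Gene ID 3008) had 861 and 975 TPM in H460, 698 and 375 for H1299, and 673 and 877 for A549. Both were higher in the si-MALAT1 library of H460 and A549 and lower in that of H1299.

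The H4 genes H4C14 and H4C15, which encode the same protein, were the most abundant ones of their family. H4C14 (Gene ID 8370, chr1:149832657-149833052, 1 exon) had 820 and 1328 TPM in H460, 265 and 150 for H1299, and 842 and 790 for A549. It was higher in H460 and lower in H1299, and in A549 its interval of -0.12 to -0.04 on the log2 scale lay just below 0. H3C2 (Gene ID 8358), the leading H3 gene of chromosome 6, had 737 and 854 TPM in H460, 730 and 372 for H1299, and 612 and 859 for A549.

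H3C14 (Gene ID 126961) on chromosome 1 had 620 and 856 TPM in H460, 350 and 143 for H1299, and 416 and 493 for A549. Its log2 fold change of -1.36 in H1299 was among the lowest of the H3 genes. H2AC19 (Gene ID 723790) had 917 and 1272 TPM in H460, 319 and 158 for H1299, and 658 and 649 for A549, and its copy H2AC18 followed it closely.

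H2BC4 (Gene ID 8347) and H2BC12 (Gene ID 85236) have spliced transcripts as well. H2BC4 had 517 and 564 TPM in H460, 596 and 337 for H1299, and 620 and 767 for A549, log2 fold changes of 0.28, -0.69, and 0.35. H2BC12 had log2 fold changes of 0.38, -0.83, and 0.25. Both were on the side of the other H2B genes in H460 and H1299, with smaller sizes than the H2B medians.

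Some of these genes are nearly identical copies, and how reads were shared between them is not known here. Of the 70 clustered genes, 21 share at least 1 of their 100-base windows with another histone gene or pseudogene and 11 share over 50% of them. H2AC18 and H2AC19 share 99.8% or more of their windows, and H4C14, H2AC13, H2AC14, H3C14, H3C15, H4C11, and H4C12 are also among the 11. Without these 11 genes, 47 clustered genes gave medians of 0.57, -0.98, and 0.19. The 47 still hold H4C15, H3C4, and H3C13, which share 8.67%, 40.1%, and 46.5% of their windows. All windows of H4C14 lie in H4C15. The values of single copies are therefore uncertain, while the medians differed little without the 11 genes. H2AC7 and H3C4 overlap on the same strand, and H2BC18 overlaps FCGR1A and H1-10 overlaps H1-10-AS1 on opposite strands.

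The medians of the variant genes lay nearer to 0 in H460 and H1299. They were 0.19, -0.14, and 0.27 in H460, H1299, and A549 over the 12 genes kept. A fold change of 1.5 was passed upward in H460 by H4-16, H2AZ1, and H2AJ, 3 of the 12, where 9.50% of all genes passed it. H2BE1 passed it downward there, 1 of the 12 (10.3% of all genes). In H1299 it was passed upward by H3-5, 1 of the 12 (11.7% of all genes), and downward by H2AX, H4-16, and H2BS1, 3 of the 12 (11.4%). A count of 1, or 8.33% of the 12, is near the share of all genes. In A549 it was passed by 0 variant genes, and by 11.5% of all genes upward and 11.4% downward. H2BE1 had at most 5 reads and H3-5 at most 37 in a library. Of the 10 variant genes with a read in each library and a mean of 50 reads or more, 5 had an interval above 0 in H460 and below 0 in H1299, which 10.8% of all genes had, and H1-10, H2BS1, H3-3A, and H3-3B were among the exceptions.

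The 2 solitary genes with a stem-loop are described first. H2AX (Gene ID 3014, chr11:119093874-119095465, 1 exon), whose protein is phosphorylated at DNA breaks, had 2329 and 2523 reads in H460, 4991 and 2390 for H1299, and 1424 and 1841 for A549. H4-16 (Gene ID 121504, chr12:14770720-14771131, 1 exon), which encodes the same H4 protein as the clustered genes, had 1244 and 1924, 4199 and 2484, and 3049 and 3436 reads. H2AX had log2 fold changes of 0.20, -0.93, and 0.23, and H4-16 of 0.71, -0.63, and 0.03. Both were thus lower in H1299 by more than a fold change of 1.5, like most clustered genes.

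The spliced variants H2AZ1 and H2AZ2 encode H2A.Z, which marks promoters and enhancers. H2AZ1 (Gene ID 3015, chr4:99948088-99950275) had 12692 and 18467 reads in H460, 27297 and 20143 for H1299, and 11643 and 15916 for A549, log2 fold changes of 0.62, -0.31, and 0.31. For H2AZ2 (Gene ID 94239) these were 0.45, -0.10, and 0.35. The signs were those of the clustered genes, and the difference in H1299 was smaller. H2AJ (Gene ID 55766), an H2A variant on chromosome 12, was higher in H460, by 0.61, and had -0.08 in H1299 and -0.01 in A549. H2BS1 (Gene ID 54145) on chromosome 21 had 102 to 227 reads, log2 fold changes of 0.18, -1.01, and 0.13, and shares 24.2% of its windows with H2BC12. H2AB2 (Gene ID 474381) on chromosome X had at most 3 reads in each library of H460 and A549 and 204 and 152 reads in H1299, and it is nearly identical to H2AB1 and H2AB3.

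H3-3A and H3-3B both encode H3.3, which replaces H3 outside S phase at active genes and repeats. H3-3A (Gene ID 3020, chr1:226061831-226072019) had 7611 and 10193 reads in H460, 9304 and 9250 for H1299, and 6430 and 9228 for A549. It shares 57.6% of its windows with the pseudogene H3P6, and how reads were split between them is not known here. H3-3B (Gene ID 3021, chr17:75776434-75779779) had 22963 and 24806, 37163 and 36992, and 19602 and 31023. Scaled, both genes were higher in the si-MALAT1 library in 3 of 3 lines, with log2 fold changes of 0.50, 0.12, and 0.38 for H3-3A and 0.19, 0.12, and 0.52 for H3-3B. The 2 genes gave 7.06% of all H3 TPM in the control and 6.19% in the si-MALAT1 library of H460, 10.0% and 21.1% for H1299, and 11.4% and 13.0% for A549. In H1299 the H3.3 share of H3 transcripts was therefore higher in the si-MALAT1 library, in which the clustered H3 genes summed to 1654 TPM against 3496 in the control. For H2AZ1 and H2AZ2 the share of H2A TPM was 5.38% and 5.29% in H460, 12.1% and 19.5% for H1299, and 8.28% and 9.58% for A549.

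The solitary linker histone H1-10 (Gene ID 8971, chr3:129314771-129316286) was lower in all 3 lines. It had 5906 and 4813 reads in H460, 4393 and 3240 for H1299, and 2886 and 2572 for A549, log2 fold changes of -0.21, -0.31, and -0.31, and a mean of -0.28 ± 0.06 (SD, n = 3). In H460 and A549 it went against the clustered H1 genes, whose medians were 0.52 and 0.35.

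**Figure D3:**
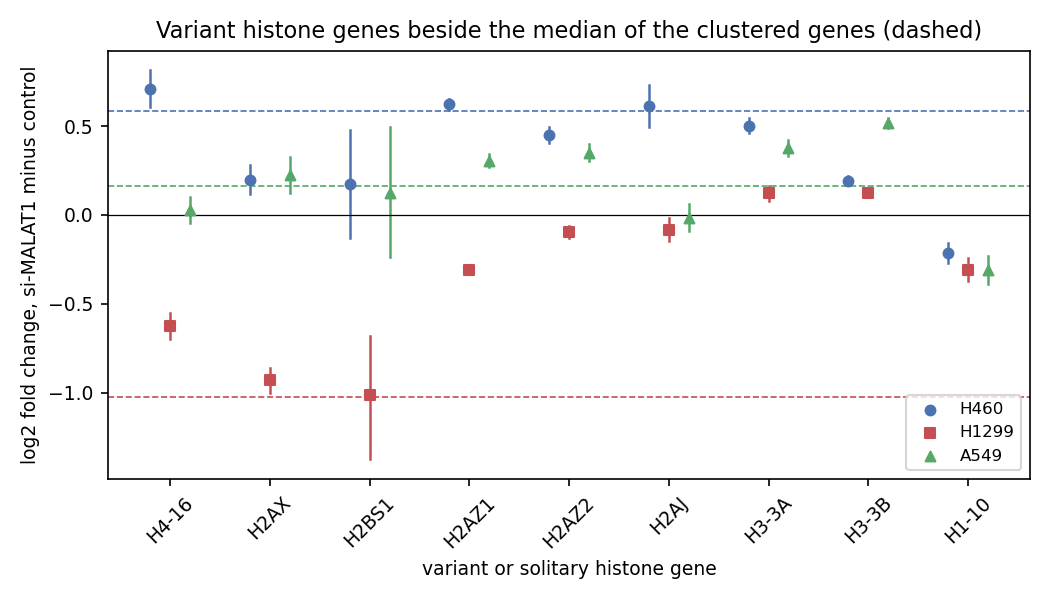
Log2 fold change, si-MALAT1 minus control, of 9 variant or solitary histone genes in H460, H1299, and A549 (points) with exact 95% intervals for counting error (bars) and the median of the clustered genes in each line (dashed lines of the same colour). H3-3A and H3-3B lie above 0 and H1-10 below 0 in each line, while in H1299 H2BS1 and H2AX lie next to the clustered median and H4-16, at -0.63, lies between it and 0.

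Split by the stem-loop instead of by class, the 60 genes with it had medians of 0.58, -1.01, and 0.16, and the 8 without it, among them H1-10, H2AZ1, H2AZ2, H2AJ, H2BS1, H3-3A, and H3-3B, had 0.32, -0.14, and 0.22. In H1299 the genes with a stem-loop ran from -1.78 to -0.34 and those without it from -1.01 to 0.12, so the ranges overlapped. The difference between the groups was not tested.

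The lines also differed in which clustered genes they used. As a rule chosen after the values were seen, genes under 2 TPM in the control of one line and at 20 TPM or more in that of another were listed, which gave 13 of the 70. The rule was applied to clustered histone genes only. The share of all genes that meet it is not known here, so whether 13 of 70 is unusual was not tested. H3C4, H2AC7, H2BC8, H2AC8, and H2BC9 were low in A549, H3C3, H2BC6, H3C11, and H4C13 in H460 and H1299, H2AC11 and H4C9 in H460, H3C8 in H460 and A549, and H3-2 in H1299. H2BC7, at 2.58 TPM in A549, H2BC3, at 2.24 in H460, and H3C1, at 5.60 in H1299, were just outside the rule. The si-MALAT1 libraries, which the rule did not use, gave the same picture for 13 of the 13 genes, with at most 1.17 TPM in the low lines and at least 33.9 TPM in the high ones. They come from the same lines as the controls, so this is no independent check. Another 6 clustered genes, H1-1, H2AC1, H2BC1, H3-4, H4C6, and H4C7, were under 2 TPM in every library.

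The genes low in A549 lie close to each other on chromosome 6 and are interrupted by active genes. From H3C4 to H3C8 (chr6:26196784-26271413), the A549 control had 0.114 TPM for H3C4, 1.15 for H2AC7, and 2.58 for H2BC7, but 370 for the next gene, H4C5. It then had 1.18 TPM for H2BC8 and 0.507 for H2AC8, but 545 for H1-3 and 131 for H3C7, and again 1.52 for H2BC9 and 0.489 for H3C8. In the H1299 control these genes other than H3C6, H4C6, and H4C7 had between 105 and 657 TPM. Low and high genes therefore alternated within this stretch in A549.

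**Figure D4:**
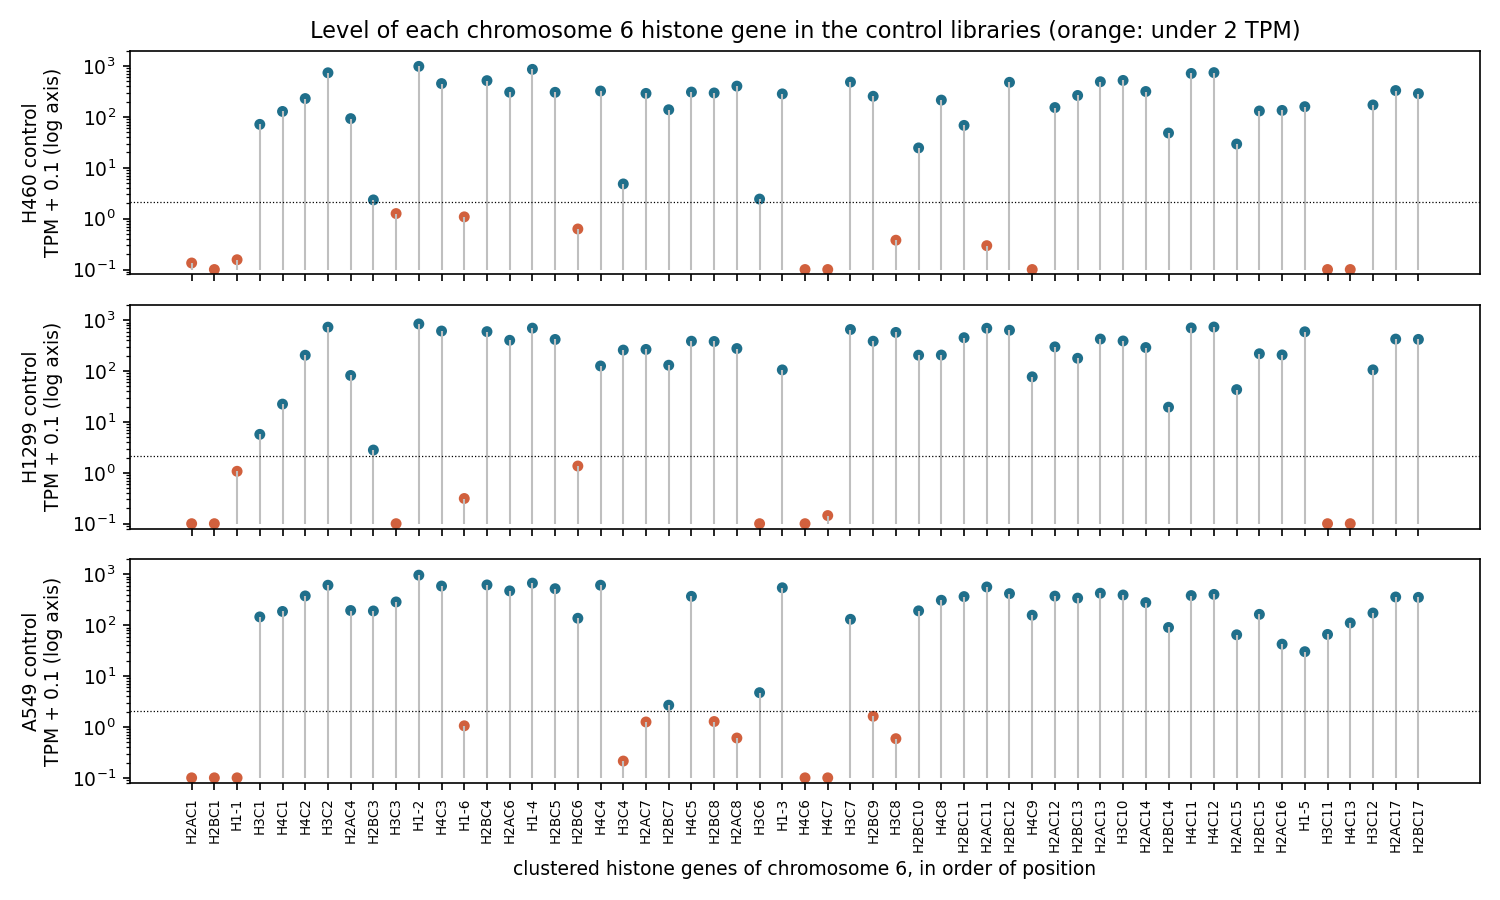
Level of each of the 55 clustered histone genes of chromosome 6 in the control library of each line, in TPM plus 0.1 on a log axis, in order of position; orange marks genes under 2 TPM and the dotted line that limit. In A549 a group of low genes from H3C4 to H3C8 is interrupted by H4C5, H1-3, and H3C7, which are expressed in each of the 3 lines.

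Neighbouring H2A and H2B genes often share a promoter region. With starts at most 1000 bases apart on opposite strands, 14 pairs were found, 12 of them an H2A and an H2B gene. H2BC7 was counted with both H2AC7 and H3C4, at 223 bases each, because the annotated spans of H2AC7 and H3C4 begin at the same base. In 2 of the 14 pairs, 1 gene was under 2 TPM and the other at 20 TPM or more in the same control library. H2AC8 and H2BC8, a pair outside these, had 403 and 296 TPM in the H460 control and 0.507 and 1.18 in A549. The first of the 2 pairs was H2AC11 and H2BC11, whose starts lie 248 bases apart. In the H460 control H2BC11 had 68.1 TPM and H2AC11 0.194 TPM, where H1299 had 453 and 695 and A549 366 and 566. The second was H3C7 and H2BC9, 979 bases apart, which differed in A549, at 131 and 1.52 TPM.

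The extreme log2 fold changes of single clustered genes in H460 and A549 belonged to these lowly used genes. The highest in H460 was that of H2AC11, 1.51 (95% interval 0.27 to 3.29), on 6 and 18 reads, and the highest in A549 was that of H3C4, 2.63 (0.96 to 6.18), on 2 and 18 reads. The lowest value in H1299 was that of H2AC7, -1.78 (-1.85 to -1.71), on 7841 and 2088 reads, and 81.8% of its windows lie in H3C4 too.

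Over the 3 lines, no histone gene was called as higher or lower. The quasi-likelihood test of edgeR was run over 19122 genes with Benjamini-Hochberg adjustment and with the line as a block, which leaves 2 residual degrees of freedom. MALAT1 was the 1 gene called lower (0.00523% of genes) and 0 genes were called higher (0%). Of the 73 histone genes tested 0 were called in either direction, and their adjusted p-values ran from 0.146 to 0.993. An unadjusted p under 0.05 was found for 6 of the 73 members, where 15.0% of all genes had one. DESeq2's Wald test, which the study's methods name, called 2 of the 73, H4C9 and H3C8, both lower. Of all 19122 genes it called 569 higher and 592 lower, so the lower calls among histone genes were near the share of all genes.

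Among the 6 were H4C9, H3C8, H3C6, H1-10, and H3-3A, with adjusted p-values in the edgeR test of 0.146, 0.193, 0.199, 0.265, and 0.307. H4C9 (Gene ID 8294, chr6:27139282-27139678), an H4 gene that lies within the span of H2BC12 on the other strand, had 0 and 0 reads in H460, 1764 and 679 for H1299, and 2185 and 1549 for A549. It was lower in both lines that express it. H3C8 (Gene ID 8355) had 8 and 2 reads in H460, 16464 and 6302 for H1299, and 9 and 14 for A549, so its value rests on H1299. H3C6 (Gene ID 8353), an H3 gene with a spliced transcript, had 363 and 613 reads in H460, 0 and 3 for H1299, and 433 and 939 for A549, and was higher in the 2 lines with more than 3 reads.

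Genes that act on histones were set beside them, from lists chosen by function. The S-phase list holds 18 genes of DNA replication and its control. Its median log2 fold change was 0.36, -0.75, and -0.12 in H460, H1299, and A549, and 17, 0, and 6 of the 18 genes were above 0, and a fold change of 1.5 was passed by 3 upward in H460, 12 downward in H1299, and 2 upward and 3 downward in A549. Of all 14464 genes with a mean of 50 reads or more, the set to which these lists were held, it was passed upward and downward by 6.71% and 6.91% in H460, by 9.80% and 8.97% in H1299, and by 8.37% and 8.99% in A549. The S-phase list thus had the sign of the clustered histone genes in H460 and H1299 and not in A549, and its part in the histone result was not tested. Of its genes TYMS, which makes thymidylate for DNA, had log2 fold changes of -0.33, -1.26, and -0.42, MCM3, a subunit of the replicative helicase, 0.07, -1.37, and -0.67, and CCNE2, a cyclin of S-phase entry, 1.14, -0.32, and 0.74.

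The list of histone pre-mRNA processing had medians near 0. The median over 18 of its 19 genes was 0.08, -0.17, and -0.11, and a fold change of 1.5 was passed by 0 genes in H460, by 1 upward and 1 downward in H1299, and by 2 downward in A549. SLBP, which binds the stem-loop and is also on the S-phase list, had 0.37, -0.22, and -0.07, and NPAT had 0.10, 0.07, and 0.18. LSM10, a protein of the U7 particle, was lower in 3 of 3 lines, at -0.42, -0.56, and -0.91, as were ERI1, an exonuclease that trims the stem-loop, at -0.19, -0.76, and -0.46, and HINFP, an activator of H4 genes, at -0.36, -0.11, and -0.61. The U7 RNA gene RNU7-1 had 1 read in each library and was not analysed further.

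Histone chaperones, which carry histones to DNA, had medians of -0.08, -0.24, and -0.05 over 24 genes. A fold change of 1.5 was passed by 1 upward and 1 downward in H460, by 7 downward in H1299, and by 3 downward in A549. MMS22L, which acts at stalled forks, was lower in 3 of 3 lines, at -0.64, -1.03, and -1.07. RBBP4, a subunit shared by several chromatin complexes, had -0.47, -1.08, and -1.09, and CHAF1A, the large subunit of the assembly factor CAF-1, had -0.22, -1.26, and -0.80. None of the 3 lists had a gene called in the paired edgeR test, in which the smallest Benjamini-Hochberg adjusted p was 0.0734, for MMS22L. Of 3 histone variants that the symbol rule does not take in, MACROH2A1 had -0.31, -0.55, and -0.56, CENPA, the H3 of centromeres, 0.20, -0.80, and -0.16, and MACROH2A2 0.13, -0.24, and 0.24.

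**Figure D5:**
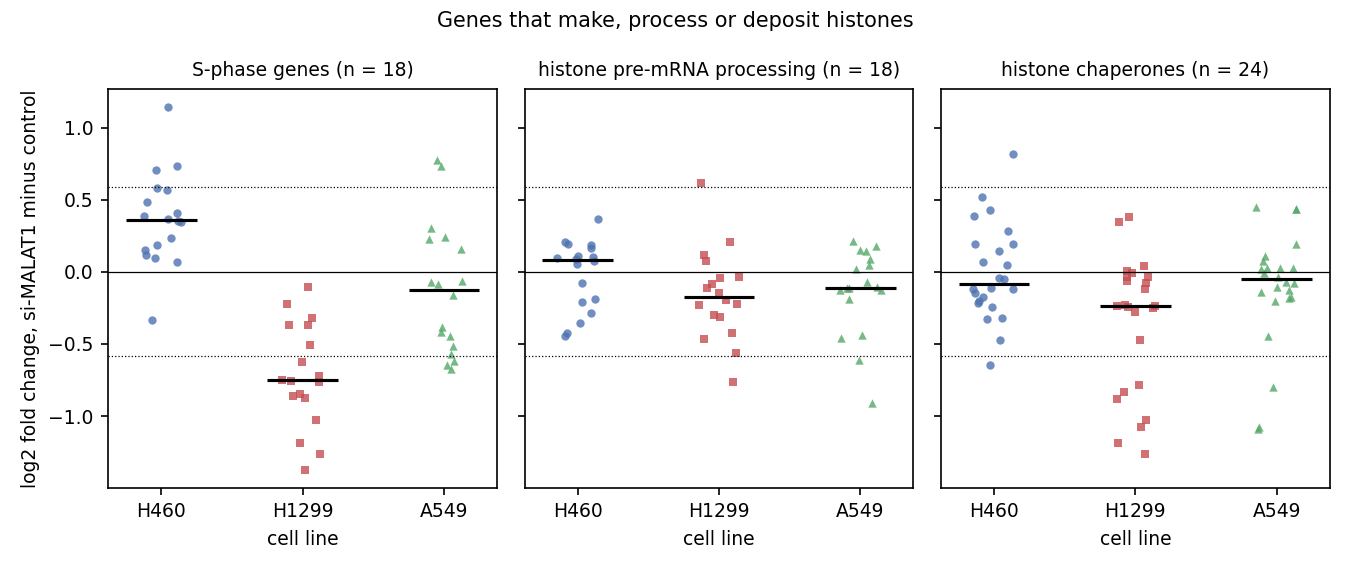
Log2 fold change, si-MALAT1 minus control, of 18 S-phase genes, 18 histone pre-mRNA processing genes, and 24 histone chaperones in each line (points), with medians (black lines) and a fold change of 1.5 (dotted). The S-phase genes lie mostly above 0 in H460 and below 0 in H1299, and the medians of the other lists lie within 0.24 of 0.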

How the data were processed

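Total RNA of 6 cultures was sequenced by the authors after removal of ribosomal RNA with a stranded kit. The methods name HISAT 2.1.0 on hg38 and StringTie 2.1.3b, while the submitters' processing notes list StringTie 1.3.4b and both hg19 and GRCh38. The deposited read counts are whole numbers per gene, not normalized. The deposited TPM and FPKM were scaled by the authors for length and depth. Whether counting used the strand is not given in the sources used here. Another 18 columns of per-sample values were not used. The histone genes and the lists were chosen with earlier results of these data known.

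Within a line, counts were scaled with RLE size factors, 1 was added, and log2 was taken. Genes with a read in all 6 libraries were kept, and counts with intervals also required a mean of 50 reads or more. Across lines, edgeR 4.0.16's quasi-likelihood test was run with TMM, filterByExpr, the line as block, and a Benjamini-Hochberg adjusted p under 0.05, and DESeq2 1.42.0 was the alternative. Replicates of a condition are the 3 lines. The 2 libraries of a line share its cells, and their deviations from the group means correlated at 0.876, 0.91, and 0.863. In 5 simulations with 200 genes changed by 4-fold among 18700 genes, the edgeR test recovered 96.5% and 3.92% of its calls were false. The simulations gave every gene the same preset spread, not one estimated from these data, and changed a gene by the same fold in each line. The share recovered therefore does not measure the power of the test on these data. How well the edgeR test recovers smaller fold changes, or ones of opposite sign between lines, was not tested.

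Genes named are the 2 clustered genes of each family with the highest mean TPM, variant genes with a mean of 50 reads or more, the 5 members with the smallest p, the largest rise and fall in each line, and the 3 genes of each list with the largest mean change, plus SLBP and NPAT. Others were named after their values were seen, and 1 variant gene that the rule names is not reported here. Promoters were read from RefSeq and stem-loops from GRCh38 with the deposited NCBI annotation. Python 3.11.15 with pandas 2.3.3, scipy 1.17.1, and numpy 2.4.6 and R 4.3.3 were used.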

Additional observations from a re-analysis of the deposited data

Results flagged for a closer look

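The median log2 fold change of the clustered histone genes was 0.59 in H460 and -1.02 in H1299, of opposite sign in the 2 lines. Of 58 clustered genes with a mean of 50 reads or more, 56 had a counting interval above 0 in H460 and below 0 in H1299, where 10.8% of all genes with as many reads had both. With 1 library per line and condition, the difference between the lines was not tested.

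Histone pseudogenes, which no comparison used, also had reads. Of 39 such genes 23 had at least 1 read, and their summed count ran from 4238 reads in the H1299 control library to 8184 reads in the H460 si-MALAT1 library. Reads of the coding genes and of their pseudogenes can be shared, and how many were is not known here.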

How the results depend on the processing

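With 1 library per line and condition, the intervals within a line cover counting error only. Variation between cultures and between library preparations is not measured, and no alternative supplies the missing replicates. In the paired test, all genes called at an adjusted p under 0.05 were 569 higher and 592 lower with DESeq2, 0 lower without the filter on low counts, and 0 lower with no replicate block, where the main test gave 0 higher and 1 lower. Leaving out 1 line at a time gave 0 to 51 higher and 0 to 112 lower genes. The 51 and 112 came without H460, and without H1299 or without A549 the numbers were 0 and 0. Among histone genes DESeq2 called 2 lower, and leaving out 1 line gave 0 to 1, the 1 being H2AC7 without H460. The pairing by line changed no other histone call.

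The mean of the clustered medians over the lines was -0.09 ± 0.83 (SD, n = 3) and ran from -0.42 to 0.38 when 1 line was left out. It was 0.38 without H1299, of opposite sign. On log2(TPM + 1), 15 clustered genes were past a fold change of 1.5 upward in H460, 0 downward in H460, and 1 downward in A549, against 30, 1, and 4, and 0 variant genes were past it upward in H460, downward in H460, or upward in H1299, against 3, 1, and 1. Adding 10 reads instead of 1 left 0 clustered and 0 variant genes downward in H460 and 0 variant genes upward in H1299, and a mean of 50 reads or more left 0 variant genes downward in H460 and 0 upward in H1299. At a log2 fold change of 1.5, added after the values were seen, 1 clustered gene was past it upward in H460, 1 downward in H1299, 1 upward in A549, and 0 downward in A549, and 0 variant genes in H460 or H1299. By read counts, the clustered share was 90.2% and 91.6% in H460, 83.4% and 72.4% for H1299, and 85.8% and 84.8% for A549. The other 130 values of these results under the alternatives kept their direction and their side of the threshold or lay within the stated spread. For the 27 histone genes named by rule, the mean log2 fold change over the lines changed sign in 19 of 189 alternatives. Of these, 2 came from another scaling, for H2AB2 and H2AC11, and the rest from leaving out 1 line. Scaling alternatives moved the median of all genes by less than 0.1.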
